A study of Mus musculus with 10 samples.

Results

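The 10 genes described here regulate or carry out the arm of the stress response that runs from the kinase PERK through ATF4 to CHOP. They are Atf4, Ddit3 (which encodes CHOP), Ppp1r15a (GADD34), Trib3, Chac1, Atf5, Sesn2, Ddit4, Nupr1 and Cebpb. They were chosen by name as regulatory genes of this arm, with earlier results of these data known. All 10 were found among the 27665 genes of the deposited table and passed the filter on low counts. RNA was sequenced from pancreatic islets, the endocrine clusters that consist mostly of insulin-producing beta cells. The islets came from 10 male C57BL/6J mice aged 8 to 10 weeks, of which 5 ate western diet over 4 weeks and 5 ate standard chow. No transgene or deletion is named for either diet. Each library is 1 mouse, the islets were processed directly after isolation, and total counts ran from 16532518 to 23902681.

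All 5 chow mice were labelled cage 3, 4 western diet mice cage 4 and 1 western diet mouse cage 2. No cage held both diets, so diet and cage cannot be told apart. Beta cell markers dominated every library, with a summed level of 242000 to 276700 CPM (read counts scaled to the library size) on western diet and 230900 to 267000 on chow. The 14 acinar markers, which mark the enzyme-secreting tissue around the islets, summed to 923 to 6754 CPM on western diet and 767 to 3239 on chow. Of these markers 2 averaged under 1 CPM, among them Ptf1a, which was at 0 in 5 libraries, and none of the 12 tested differed by the test described below. Of the 18 immediate early and heat shock genes listed because handling of tissue raises them, 16 were lower on western diet, and Hspa8 and Hsph1 did not pass the test. Their summed level was 11670 to 14370 CPM on western diet and 19570 to 23940 on chow, with no overlap.

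In the integrated stress response, kinases such as PERK phosphorylate the translation factor eIF2, which lowers protein synthesis while letting a few messages, among them that of ATF4, be translated more. ATF4 is a bZIP transcription factor that turns on genes of amino acid supply and, together with CHOP, genes linked to cell death. GADD34 takes part in the feedback that removes the phosphate from eIF2. Beta cells make large amounts of insulin in the endoplasmic reticulum and depend on this arm; loss of PERK causes early diabetes. Since ATF4 output is set largely by translation, a messenger RNA level is only part of its activity, and protein and eIF2 phosphorylation were not measured here.

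Promoter windows of 250 bases before the RefSeq start (GRCm38.p6) were found for all 10 genes, 11 windows in all since Atf5 has a pair. They were searched on both strands for TGATGNAA (the core of the C/EBP-ATF response element), TGACGTCA (the cAMP response element), TGANTCA (the AP-1 site) and GAANNTTC (the heat shock element core). The matches are shown for Ddit3 and Ppp1r15a, the genes that changed, and for Chac1, a known ATF4 target that did not pass the test. Capitals mark the match, and each stretch is the part of the window around the match that no exon of a protein-coding gene interrupts. Of the Ddit3 window, 175 bases lie in exons of Gm4189, an opposite-strand gene not annotated as protein-coding. The Ddit3 stretch is chr10:127290543-127290773, plus strand, the Ppp1r15a stretch is chr7:45526269-45526329, minus strand, and the Chac1 stretch is chr2:119350992-119351228, plus strand.
Ddit3: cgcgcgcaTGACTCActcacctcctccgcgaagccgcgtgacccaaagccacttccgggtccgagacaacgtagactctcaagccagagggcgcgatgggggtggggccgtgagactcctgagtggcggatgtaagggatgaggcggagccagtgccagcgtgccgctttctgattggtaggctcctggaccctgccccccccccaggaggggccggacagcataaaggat
Ppp1r15a: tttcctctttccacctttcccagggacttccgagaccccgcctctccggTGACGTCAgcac
Chac1: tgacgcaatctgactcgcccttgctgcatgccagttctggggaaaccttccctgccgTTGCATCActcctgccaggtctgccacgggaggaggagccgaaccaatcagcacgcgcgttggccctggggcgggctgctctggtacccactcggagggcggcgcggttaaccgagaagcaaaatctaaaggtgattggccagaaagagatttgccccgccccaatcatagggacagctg

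The Ddit3 window holds an AP-1 match, 242 to 236 bases before the start. The Ppp1r15a window holds a cAMP response element 12 to 5 bases before the start. The C/EBP-ATF core occurs in the Chac1 window, 193 to 186 bases before the start, and in the Nupr1 window at chr7:126625471-126625720, minus strand, 110 to 103 bases before the start. That Nupr1 window lies within an exon of a longer annotated Nupr1 transcript and is not printed. Among all 32841 windows of the table, 3.45% held the C/EBP-ATF core, 1.55% the cAMP response element, 6.75% the AP-1 site and 6.7% the heat shock core. Of the 11 windows, 2, 1, 1 and 0 held these motifs. A match is a description of letters, not a site or a cause, and an absent match says only that these letters are not in this window.

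Start codons ahead of the coding start, the feature through which eIF2 phosphorylation acts on Atf4, were counted in the 10 messages, in any frame. The principal GENCODE M21 transcript of Ppp1r15a had 7 upstream AUG codons, that of Atf4 had 3, and those of Ddit3 and Atf5 had 2 each. Sesn2 and Nupr1 had 1 each, and Trib3, Chac1, Ddit4 and Cebpb had 0. Thus 6 of 10 had at least 1, against 51.5% of the 9936 tested protein-coding genes with a principal transcript, and 4 had 2 or more, against 29.8%. Such codons are thus common among all genes, and the count does not show control by eIF2. The 10 transcripts were short, with a median of 1740 bases and 3 exons, against 2920 bases and 8 exons over those 9936 genes.

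On western diet 2 of the 10 genes fell and 0 rose, in the fit over all 15104 tested genes (quasi-likelihood test of edgeR, adjusted p under 0.05 by Benjamini-Hochberg). Over all tested genes 10.8% were called, 5.27% as higher and 5.5% as lower. Ddit3 and Ppp1r15a were the genes that fell, and 8 genes did not pass, among them Atf4 itself; 2 of the 10, the same genes, had an unadjusted p under 0.05. The median log2 fold change of the 10 was 0.07, against 0.01 over all tested genes, and 6 of the 10 values were positive. In bulk islets, fewer cells of a type and less RNA per cell cannot be told apart.

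**Figure D1:**
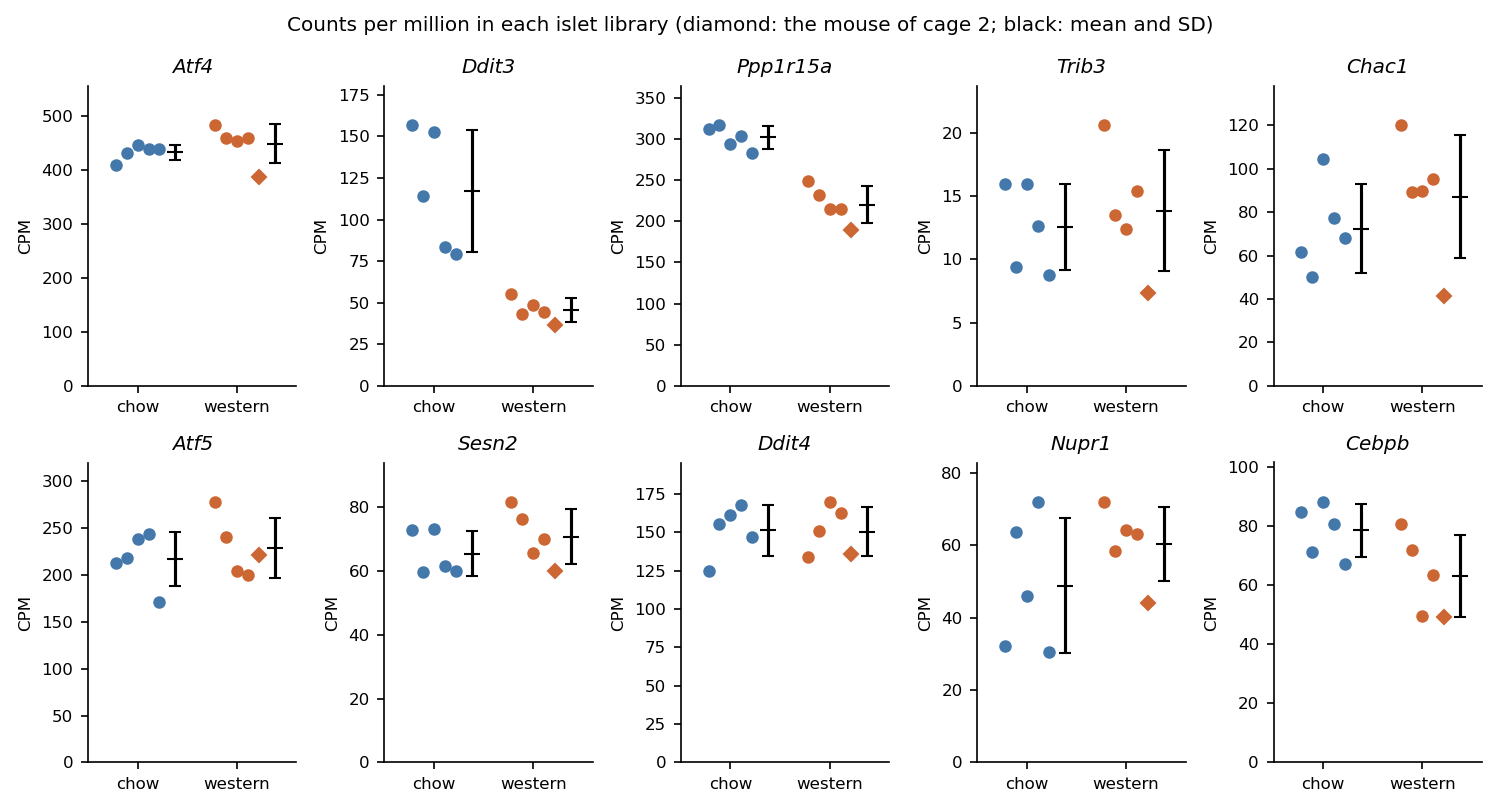
CPM of each of the 10 genes in each library (blue, standard chow; orange, western diet; diamond, the western diet mouse of cage 2), with the mean and SD of 5 libraries per diet in black and each axis starting at 0. Ddit3 and Ppp1r15a show no overlap between the diets, and the diamond is the lowest western diet point in 8 of the 10 panels.

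Ddit3 (ENSMUSG00000025408, GRCm38 chromosome 10, 127290774 to 127296288) encodes CHOP, the bZIP factor that ATF4 induces and that drives later, pro-apoptotic transcription. In chow mice 1 to 5 of cage 3 its level was 156.8, 114.0, 152.7, 83.48 and 79.1 CPM. In western diet mice 1, 2, 4 and 5 of cage 4 it was 55.38, 42.94, 44.62 and 48.81 CPM, and in the mouse of cage 2 it was 36.67. Every western diet library lay below every chow library, and chow libraries 1 and 3 lay well above chow libraries 4 and 5. The mean was 45.7 ± 6.96 CPM on western diet against 117 ± 36.9 for chow (± SD over 5 mice). This is a log2 fold change of -1.36 ± 0.23 (± SE; adjusted p by edgeR = 0.00966), or 2.57-fold lower. The chow mice differed among themselves by up to 1.98-fold and the western diet mice by up to 1.51-fold. Of the 831 genes called lower, Ddit3 had the 39th lowest log2 fold change.

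Ppp1r15a (ENSMUSG00000040435, chromosome 7, 45522916 to 45526268) encodes GADD34, the inducible subunit that brings protein phosphatase 1 to eIF2. Its level in chow mice 1 to 5 was 311.9, 316.9, 293.9, 304.0 and 283.2 CPM. In western diet mice 1, 2, 4 and 5 of cage 4 it was 249.4, 231.5, 215.1 and 214.5 CPM, and in the mouse of cage 2 it was 188.9. The diets did not overlap, and the libraries of each diet lay close together, unlike those of Ddit3. The mean fell from 302 ± 13.6 to 220 ± 22.5 CPM (± SD over 5 mice), a log2 fold change of -0.46 ± 0.06 (± SE; adjusted p by edgeR = 3.02e-04). That is a decrease of 1.37-fold.

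The diets were fully apart for 2 of the 10 genes, these same ones, and for 8.85% of all tested genes. Both calls held when any single mouse was left out, with log2 fold changes of -1.47 to -1.24 for Ddit3 and -0.51 to -0.41 for Ppp1r15a. Without the mouse of cage 2, so that 1 cage stood against 1 cage, they were -1.29 and -0.41 (edgeR adjusted p = 0.0191 and 3.09e-04). The immediate early and heat shock genes moved the same way: their mean log2 CPM was 8.37 ± 0.14 on western diet and 9.37 ± 0.13 on chow (± SD over 5 mice, two-sided exact permutation p = 0.00794, the smallest 5 against 5 allows). The list was chosen with earlier results of these data known, so this p is a description. The early gene mean separates the diets completely, so a fit cannot tell diet from that mean. With it as a covariate 0 of all tested genes were called (492 had an unadjusted p under 0.05), and the log2 fold changes became 0.85 for Ddit3 and 0.20 for Ppp1r15a (edgeR adjusted p = 1 for each).

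Within the diets, after each diet's mean was subtracted, the level of Ddit3 correlated with that early gene mean at r = 0.72 and Ppp1r15a at r = 0.75 over the 10 libraries. These are descriptions over libraries that share a cage within most of each diet, and the part of handling in either decrease was not tested. For Sesn2 the same r was 0.82, for Cebpb 0.78, for Trib3 0.67 and for Atf5 0.60, and none of these 4 passed the diet test. For Chac1 it was 0.38, for Atf4 0.35, for Nupr1 0.17 and for Ddit4 -0.27. The same r was not computed for genes outside the 10, so these values are not shown to be particular to them. Duct markers were also lower on western diet as a mean, 3.18 ± 0.18 against 3.79 ± 0.23 log2 CPM (± SD over 5 mice, two-sided exact permutation p = 0.00794), while their summed level was 308 to 332 CPM against 316 to 336. The mean is over the 7 tested duct markers, 5 with a negative and 2 with a positive log2 fold change. The duct list too was chosen with earlier results of these data known, so its p is a description. The 2 called lower had low levels, Krt19 with 0.57 against 3.58 CPM and Muc1 with 1.51 against 2.99. The abundant Krt7 had 235 against 225 CPM and did not pass. Endothelial markers summed to 324 to 376 CPM against 378 to 417. The part of either cell type in the results on Ddit3 and Ppp1r15a was not tested.

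**Figure D2:**
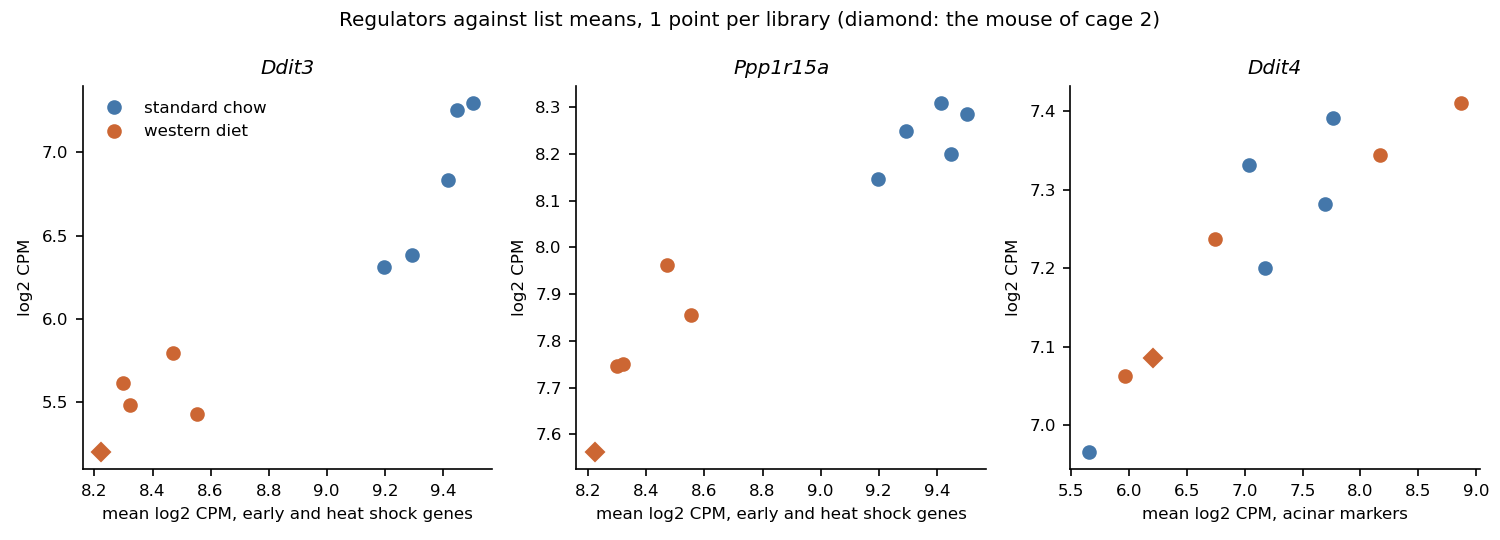
Log2 CPM of Ddit3 and Ppp1r15a against the mean log2 CPM of the 18 immediate early and heat shock genes, and of Ddit4 against the mean of the 12 tested acinar markers, 1 point per library (diamond, the mouse of cage 2). The diets form separate groups along the early gene axis, at 8.37 and 9.37 on average, and overlap along the acinar axis, where Ddit4 follows the markers at r = 0.92 within the diets.

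Atf4 (ENSMUSG00000042406, chromosome 15, 80255184 to 80257541), the factor at the head of this arm, did not pass the test. Its level in chow mice 1 to 5 was 410.9, 432.2, 447.3, 440.3 and 439.1 CPM. In western diet mice 1, 2, 4 and 5 of cage 4 it was 484.0, 460.2, 461.0 and 455.4 CPM, and in the mouse of cage 2 it was 388.0. Thus 4 western diet libraries lay above every chow library and 1 lay below every chow library. The means were 450 ± 36.2 and 434 ± 14.0 CPM (± SD over 5 mice), a log2 fold change of 0.05 ± 0.05 (± SE; adjusted p by edgeR = 0.588). Without the mouse of cage 2 it was 0.10 (edgeR adjusted p = 0.176), and it was 0.02 without western diet mouse 1 of cage 4 (0.838) or without chow mouse 1 (0.846).

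Cebpb (ENSMUSG00000056501, chromosome 2, 167688915 to 167690418) encodes C/EBP beta, a bZIP partner of ATF4 and CHOP. It measured 84.91, 71.36, 88.27, 80.67 and 67.29 CPM in chow mice 1 to 5. It measured 80.74, 71.95, 63.47 and 49.53 CPM in western diet mice 1, 2, 4 and 5 of cage 4, and 49.07 in the mouse of cage 2. Here 3 western diet libraries lay below all chow libraries and 2 lay among them. The log2 fold change was -0.32 ± 0.15 (± SE; adjusted p by edgeR = 0.218). Tmem189, on the opposite strand at about 10 CPM, shares 312 exonic bases with Cebpb, 20.7% of its exons, and whether the counting used strand is not stated.

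Atf5 (ENSMUSG00000038539, chromosome 7, 44812256 to 44816658) encodes a bZIP factor tied to mitochondrial stress and, in beta cells, to survival under stress. Its mean was 229 ± 31.9 CPM on western diet against 217 ± 28.7 for chow (± SD over 5 mice). The ranges of 199.7 to 278.3 and 171.0 to 243.6 CPM overlapped, and the log2 fold change was 0.08 ± 0.11 (± SE; adjusted p by edgeR = 0.702). Nup62 and Il4i1 on the opposite strand share 82 exonic bases with Atf5.

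Trib3 and Chac1 are known targets of this arm. Trib3 (ENSMUSG00000032715, chromosome 2, 152337422 to 152344032) encodes a pseudokinase that binds AKT and ATF4. It had 16.0, 9.441, 15.95, 12.64 and 8.808 CPM in chow mice 1 to 5, and 20.62, 13.54, 15.41 and 12.37 CPM in western diet mice 1, 2, 4 and 5 of cage 4. The mouse of cage 2 had 7.368 CPM, the lowest of all 10 libraries. The diets overlapped widely, with a log2 fold change of 0.15 ± 0.28 (± SE; adjusted p by edgeR = 0.795).

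Chac1 (ENSMUSG00000027313, chromosome 2, 119351229 to 119354381) encodes an enzyme that breaks down glutathione. It had 61.78, 50.25, 104.6, 77.46 and 67.97 CPM in chow mice 1 to 5, and 120.1, 89.46, 95.2 and 89.91 CPM in western diet mice 1, 2, 4 and 5 of cage 4. Again the mouse of cage 2 was lowest of all, at 41.4 CPM, while the other western diet mice lay above at least 4 of the 5 chow mice. The log2 fold change was 0.27 ± 0.30 (± SE; adjusted p by edgeR = 0.615). It was 0.45 without the mouse of cage 2 and 0.43 without chow mouse 3, but 0.125 without western diet mouse 1 of cage 4 and 0.16 without chow mouse 2.

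Sesn2 and Ddit4 encode brakes on the growth kinase complex mTORC1, Sesn2 as a leucine sensor and Ddit4 (REDD1) through the TSC complex. Sesn2 (ENSMUSG00000028893, chromosome 4, 132492032 to 132510501) averaged 70.7 ± 8.61 CPM on western diet against 65.5 ± 7.01 for chow (± SD over 5 mice). Its ranges of 59.95 to 81.82 and 59.65 to 73.29 CPM overlapped, with a log2 fold change of 0.11 ± 0.09 (± SE; adjusted p by edgeR = 0.440). It was 0.05 without western diet mouse 1 of cage 4 and 0.17 without the mouse of cage 2.

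Ddit4 (ENSMUSG00000020108, chromosome 10, 59949669 to 59951834) averaged 150 ± 16.0 CPM on western diet against 151 ± 16.6 for chow (± SD over 5 mice), ranging from 133.5 to 169.9 and from 124.9 to 167.7. The log2 fold change was -0.0079 ± 0.083 (± SE; adjusted p by edgeR = 0.966), and its sign turned when single mice were left out. Within the diets Ddit4 correlated with the acinar marker mean at r = 0.92, and 1 of the 2 genes closest to it in pattern was the acinar enzyme gene Cpb1 (r = 0.94). Cpb1 is 1 of the 12 tested acinar markers in that mean, so its r is not a separate observation. It was also picked among 10389 genes, so that r can be high from the picking alone. The r with the acinar mean was not computed for genes outside the 10. The part of acinar RNA in the level of Ddit4 was not tested.

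Nupr1 (ENSMUSG00000030717, chromosome 7, 126623249 to 126630861) encodes a small stress-induced chromatin protein. It had 32.11, 63.62, 46.02, 72.09 and 30.45 CPM in chow mice 1 to 5, a spread of more than the difference between the diets. In western diet mice 1, 2, 4 and 5 of cage 4 it had 71.87, 58.41, 63.2 and 64.33 CPM, and 44.0 in the mouse of cage 2. The diets overlapped, and the log2 fold change was 0.31 ± 0.27 (± SE; adjusted p by edgeR = 0.517). It was 0.175 without chow mouse 5 and 0.18 without chow mouse 1, but 0.48 without chow mouse 4.

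**Figure D3:**
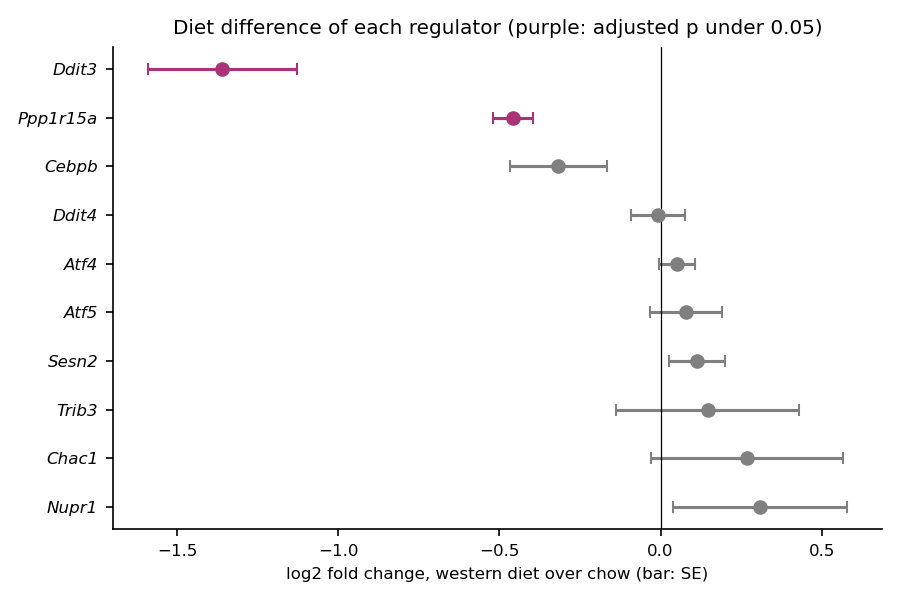
Log2 fold change of each of the 10 genes, western diet over chow, with its SE (edgeR, n = 5 per diet; purple, adjusted p under 0.05). Ddit3 at -1.36 and Ppp1r15a at -0.46 are coloured, and the others lie between -0.32 and 0.31 in grey.

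The authors' deposited table gives the same members: its log2 fold changes are -1.36 for Ddit3 (adjusted p-value 2.17e-07) and -0.457 for Ppp1r15a (2.14e-09). For Cebpb the authors' deposited table has an unadjusted p-value of 0.0465 and an adjusted one of 0.184. For the other 7 genes the adjusted p-values in the authors' deposited table run from 0.459 to 0.967.

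Whether the other genes moved relative to Atf4 was tested by the log2 ratio of each to Atf4 within a library, a value that the scaling of libraries cannot change. Of 9 ratios, 2 differed between the diets after adjustment, both lower on western diet. The log2 ratio of Ddit3 to Atf4 was -3.31 ± 0.13 on western diet and -1.95 ± 0.49 on chow (± SD over 5 mice), a difference of -1.36 (two-sided exact permutation p = 0.00794, Benjamini-Hochberg adjusted over the 9 ratios 0.0357). The ratio of Ppp1r15a to Atf4 was -1.03 ± 0.06 on western diet and -0.52 ± 0.10 on chow, a difference of -0.51 with the same exact p and adjusted p. That exact p is the smallest that 5 against 5 allows. As Atf4 changed little (log2 fold change 0.05), the 2 ratios largely repeat the calls of Ddit3 and Ppp1r15a. In every western diet library both ratios lay below those of every chow library. For Cebpb the difference of -0.39 failed the adjustment (two-sided exact permutation p = 0.0397, adjusted 0.119), and for the other 6 genes it lay between -0.05 and 0.32 with adjusted permutation p of 0.571 to 0.841. Any single mouse could be left out and 2 ratios still differed.

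**Figure D4:**
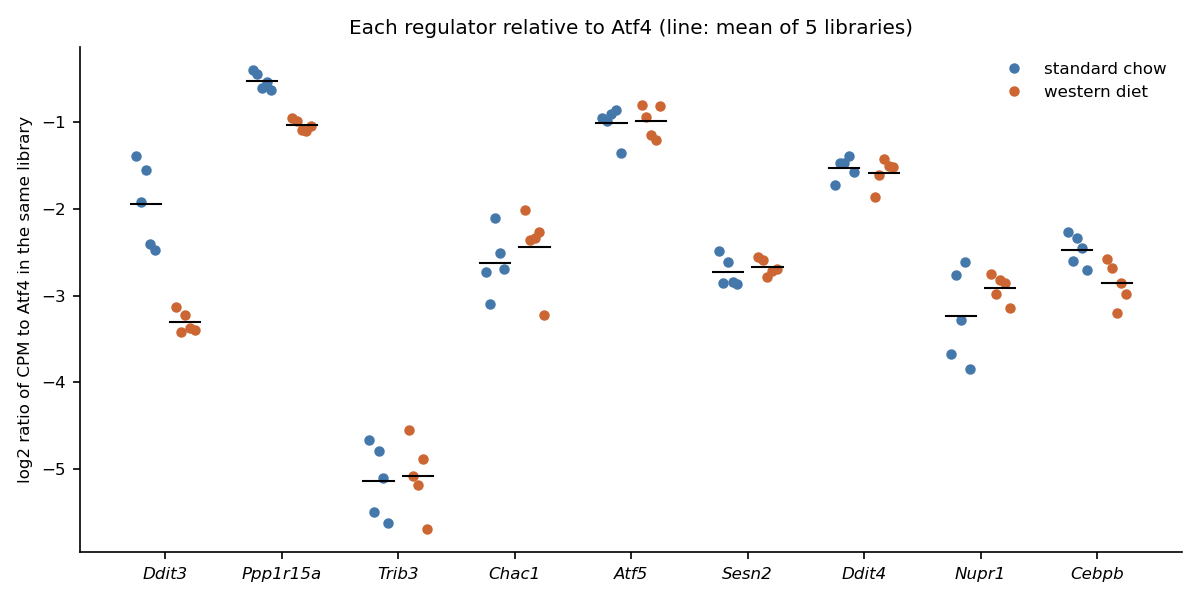
Log2 ratio of the CPM of each of 9 genes to that of Atf4 in the same library (blue, standard chow; orange, western diet; line, mean of 5 libraries). The ratios of Ddit3 and Ppp1r15a are lower in all 5 western diet libraries than in any chow library, and the other 7 genes overlap.

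With the mean log2 CPM of the 9 other genes as the reference in place of Atf4, 4 of the 10 genes differed (two-sided exact permutation test, n = 5 per diet, Benjamini-Hochberg adjusted p = 0.0397 for each). Ddit3 was lower by this measure with a difference of -1.33, Ppp1r15a with -0.38 and Cebpb with -0.25, and Sesn2 was higher with 0.25. The reference holds Ddit3 itself for every gene but Ddit3, so a lower Ddit3 raises the other values.

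Per base of gene length, the level of Atf4 was first in both diets, at 184 ± 5.92 CPM per kilobase (RPKM) on chow and 191 ± 15.4 on western diet (± SD over 5 mice). On chow Atf5 followed at 109 RPKM, Ppp1r15a at 103, Ddit4 at 86.2, Ddit3 at 68.4, Cebpb at 52.2, Chac1 at 44.2, Nupr1 at 19.4, Sesn2 at 18.9 and Trib3 at 5.91. Neighbours whose ranges overlapped on chow were Atf5 and Ppp1r15a, Ddit4 and Ddit3, Ddit3 and Cebpb, Cebpb and Chac1, and Nupr1 and Sesn2. On western diet Ddit3 stood at 26.7 RPKM, below the range of Cebpb (41.9), and overlapped Nupr1 (24.0). Ppp1r15a, at 74.9 RPKM on western diet, stood below Ddit4 (85.7) in 4 of 5 libraries, whereas on chow it stood above Ddit4 in 5 of 5. These orders are descriptions and were not tested.

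The mice of a diet differed in the same direction for many of the genes. Western diet mouse 1 of cage 4 was the highest western diet library for 9 of the 10 genes, all but Ddit4. The western diet mouse of cage 2 was the lowest for 8, all but Atf5 and Ddit4. Among chow mice, mouse 5 was lowest for 6 genes and mouse 3 highest for 4. After the diet means were subtracted, 39 of the 45 pairs of genes had a positive r and 26 had an r over 0.5, with a median of 0.531 over the 10 libraries. The 6 negative pairs all held Ddit4. The pairs Sesn2 with Cebpb (r = 0.910), Trib3 with Sesn2 (0.909) and Atf4 with Chac1 (0.893) were the closest. Atf4 with Ddit3 was at 0.215, and Ddit3 with Ppp1r15a at 0.476. Pairs share the libraries and their scaling, so these values are descriptions. The same counts were not made for pairs of other genes, so they are not shown to be particular to the 10 genes.

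Among 10389 protein-coding genes of at least 5 CPM, the pattern within the diets most like that of Atf4 was that of Xbp1 (r = 0.968), which encodes the factor spliced by IRE1 alpha. For Ddit3 the closest was Herpud1 (r = 0.935), a gene of protein degradation at the endoplasmic reticulum. Herpud1 averaged 473 ± 51.3 CPM on western diet against 701 ± 160 for chow (± SD over 5 mice), a log2 fold change of -0.57 that did not pass (edgeR adjusted p = 0.0512). Every western diet library lay below every chow library for Herpud1, and it was called in 8 of 21 alternative settings. For Ppp1r15a the closest were Kctd12 (r = 0.952) and the early response factor gene Klf6 (r = 0.945), which were lower on western diet with log2 fold changes of -0.32 and -1.12 (edgeR adjusted p = 0.00893 and 0.00609). For Chac1 the closest was Eif2s2 (r = 0.977), which encodes the beta subunit of eIF2. For Cebpb the closest was Jund (r = 0.947), for Sesn2 Klf11 (0.944), for Trib3 Otub2 (0.942), for Atf5 Dnajc14 (0.928), for Ddit4 Xkr4 (0.974) and for Nupr1 Ccdc137 (0.954). The second gene for each was Ccdc97 for Atf4 (0.944), Unc45a for Ddit3 (0.934), Prickle1 for Trib3 (0.941), Slc12a4 for Chac1 (0.934), Clic4 for Atf5 (0.915), Ahcyl2 for Nupr1 (0.945), and Tubb4b for Sesn2 (0.939) and Cebpb (0.922). Every one of these genes was picked as closest among 10389 over few libraries, so a high r can come from the picking alone. The closest r ran from 0.928 for Atf5 to 0.977 for Chac1. Whether other genes have a closest r as high was not tested, so the functions named do not show shared regulation.

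Upstream of ATF4, of 20 genes of the eIF2 kinases, eIF2, its exchange factor and its phosphatase, 4 rose and 0 fell, with a median log2 fold change of 0.11. For this list and those below, the share over all tested genes was 5.27% called higher and 5.5% called lower. No list was tested as a set. Eif2ak3, which encodes PERK, rose from 76.8 ± 8.39 to 101 ± 11.8 CPM (± SD over 5 mice), a log2 fold change of 0.39 ± 0.09 (± SE; adjusted p by edgeR = 0.0145). The diets overlapped in CPM for this gene. Eif2b4, a subunit gene of the exchange factor eIF2B, had a log2 fold change of 0.35 (edgeR adjusted p = 0.00584), and Eif2s1, the eIF2 alpha subunit gene whose product PERK phosphorylates, had 0.29 (0.0123). The fourth was Eif2s2 at 0.22 (edgeR adjusted p = 0.0251), named after its value was seen, and its call ended without any 1 of 5 mice. Ppp1r15b, the constitutive counterpart of Ppp1r15a, averaged 128 ± 13.6 CPM on western diet against 141 ± 8.78 for chow (± SD over 5 mice), a log2 fold change of -0.14 that did not pass (edgeR adjusted p = 0.184).

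Downstream, of 20 tested amino acid synthesis and transport targets of ATF4, 5 rose and 1 fell, with a median log2 fold change of 0.20. Slc3a2, the heavy chain shared by several amino acid transporters, rose from 172 ± 9.97 to 212 ± 9.18 CPM (± SD over 5 mice; log2 fold change 0.30, edgeR adjusted p = 0.00162). The arginine transporter gene Slc7a1 rose by 0.32 on the log2 scale (edgeR adjusted p = 0.00512) and Gpt2, a mitochondrial alanine aminotransferase gene, by 0.51 (0.00646). Named after their values were seen, Slc1a4 (0.66, edgeR adjusted p = 0.00748) and Aldh18a1 (0.23, 0.0489) also rose, and Cbs (-0.45, 0.0399) fell. The Aldh18a1 call ended without any 1 of 9 mice and the Cbs call without any 1 of 7.

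Of 12 tRNA synthetase genes under ATF4, 3 rose and 0 fell, with a median log2 fold change of 0.14. Iars rose by 0.41 and Tars by 0.44 on the log2 scale (edgeR adjusted p = 0.00122 for each), to 94.7 ± 7.89 and 85.9 ± 8.83 CPM (± SD over 5 mice). Nars was at 0.44 (edgeR adjusted p = 0.030), a call that ended without any 1 of 6 mice. Mars, which shares 68 exonic bases with Ddit3 on the opposite strand, had 107 CPM on western diet against 105 for chow and did not pass (log2 fold change 0.03). A second annotated Ddit3 gene record on the same strand shares 105 exonic bases, 6.13% of the exons of Ddit3, and was not analysed here. Ddit3 shares another 13 bases with Gm4189, and Ppp1r15a 12 with Tulp2, both under 2 CPM in the means of each diet.

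Of 16 tested other ATF4 and CHOP targets, 0 rose and 3 fell, with a median log2 fold change of -0.11. They were Ifrd1 (-0.29, edgeR adjusted p = 0.0182), the hypoxia and stress gene Ndrg1 (-0.30, 0.0324) and Bbc3 (-0.37, 0.0422), which encodes the BH3-only protein PUMA. Herpud1 is also in this list and, at -0.57, did not pass (edgeR adjusted p = 0.0512). The Ndrg1 and Bbc3 calls each ended without any 1 of 5 mice, and the Ifrd1 call without western diet mouse 5 of cage 4 (0.051). Without that mouse none of these 3 passed, and without chow mouse 3 of cage 3 the count was 1. Without the western diet mouse of cage 2, Eif4ebp1, Adm2 and Map1lc3b were called higher (edgeR adjusted p = 0.0309, 0.0432 and 0.0386); they are named after their values were seen.

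Of 13 tested bZIP genes whose products can pair with these factors, 6 fell and 0 rose. Jun fell from 3355 ± 227 to 1656 ± 162 CPM (± SD over 5 mice), a log2 fold change of -1.02 (edgeR adjusted p = 1.06e-07). Fos fell by 0.47 and Junb by 0.55 on the log2 scale (edgeR adjusted p = 2.66e-04 and 5.80e-04). All 6, which also include Jund, Fosb and Atf3, belong to the immediate early list as well. Atf3 averaged 129 ± 42.7 CPM on western diet against 295 ± 41.7 for chow (± SD over 5 mice; log2 fold change -1.20, edgeR adjusted p = 0.021), and its call ended without western diet mouse 5 of cage 4 (0.0526) or chow mouse 1 (0.0524).

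Paralogs of the 10 genes held 2 lower and 0 higher calls of 10 tested. Sesn3 fell from 218 ± 19.1 to 179 ± 12.8 CPM (± SD over 5 mice; log2 fold change -0.28, edgeR adjusted p = 0.00863), while Sesn2 did not pass. Trib1 was at -0.28 (edgeR adjusted p = 0.0315), a call that ended without any 1 of 6 mice. Of 13 brakes on mTORC1 beside Sesn2 and Ddit4, 2 rose and 2 fell. Deptor, an inhibitor subunit of mTOR complexes, fell from 182 ± 8.97 to 152 ± 4.94 CPM (± SD over 5 mice; log2 fold change -0.26, edgeR adjusted p = 0.00241), and Sesn3 was the other lower gene. Akt1s1 (0.18, edgeR adjusted p = 0.0324) and, named after its value was seen, Nprl2 (0.33, 0.0348) were higher, and these calls ended without any 1 of 6 and of 5 mice.

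Of 14 mitochondrial stress genes linked to ATF5, 1 rose and 0 fell, with a median log2 fold change of 0.05. The share that rose is close to the 5.27% over all tested genes, so this count is no result about the list. Dnaja3, which encodes a mitochondrial HSP40, rose from 59.1 ± 2.74 to 69.0 ± 3.09 CPM (± SD over 5 mice; log2 fold change 0.22, edgeR adjusted p = 0.010). Yme1l1 at 0.14 (edgeR adjusted p = 0.0863) and Timm17a at 0.16 (0.133) did not pass.

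**Figure D5:**
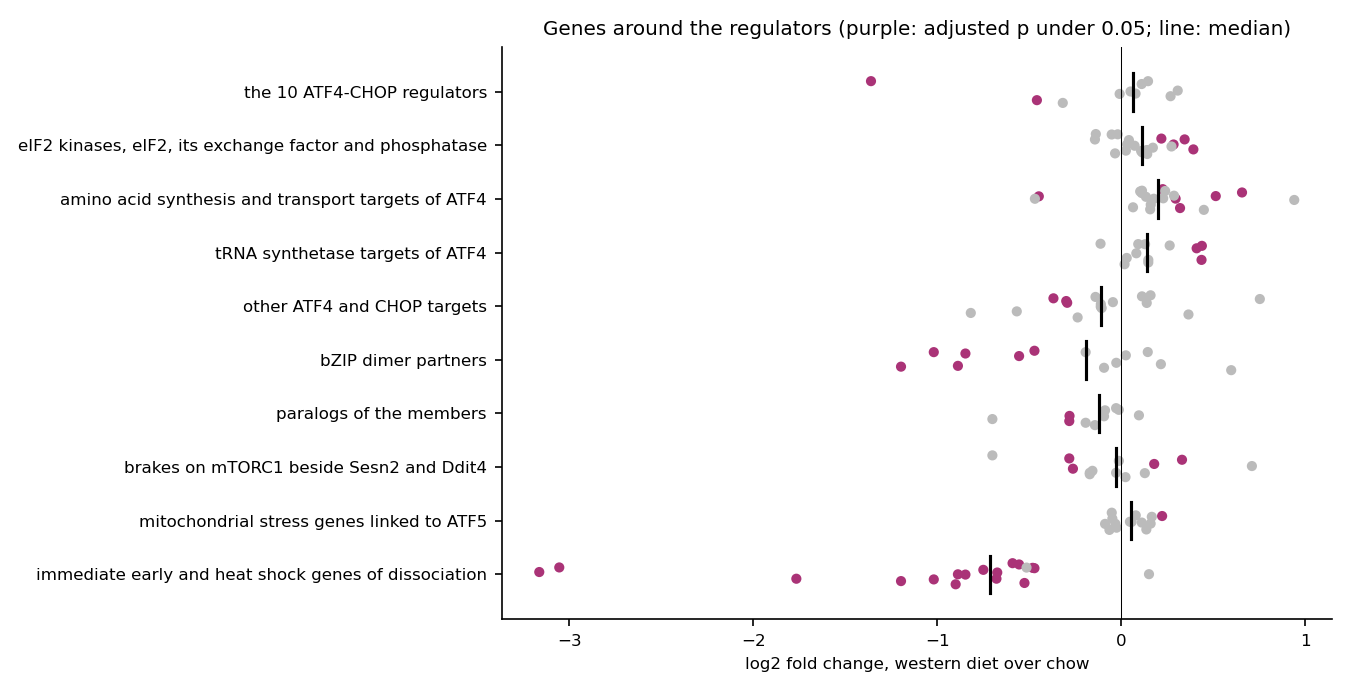
Log2 fold change, western diet over chow, of each tested gene of the 10 regulators, of 8 lists around them and of the immediate early list (purple, adjusted p under 0.05; black line, median). The amino acid list has a median of 0.20 with 5 genes called higher, and the immediate early list has 16 of 18 called lower.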

How the data were processed

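RNA of islets from 10 mice was sequenced. The deposited table holds whole-number read counts per gene, which the authors made with no normalization, as the file headers and values show. The tools STAR 2.5, HTSeq 2 and DESeq2, and the builds mm10 and GRCm38, stand in the submitters' processing notes. Per the labels' protocols the library kit was NEBNext Ultra RNA. Whether counting used strand is not given in the sources here. The same deposited table holds the authors' log2 fold changes and the authors' p-values, unadjusted and adjusted. The deposited gene length was used for RPKM, a level per length computed here. A further 20 columns of per-sample values were not used.

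The counts of 5 western diet and 5 chow libraries, grouped by title, went into edgeR 4.0.16 under R 4.3.3 (filterByExpr with a minimum count of 10, TMM factors of 0.971 to 1.02, robust quasi-likelihood fit with no covariate, Benjamini-Hochberg over 15104 genes, called at an adjusted p under 0.05). CPM use these factors, and log2 CPM add a prior count of 2. Where SE are given, they come from the fold change and its F statistic. Ratios to Atf4 were compared with exact permutation tests.

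The 10 genes and all lists were chosen with earlier results of these data known. Named are the 10, up to 3 tested genes of each list with the smallest p, and for each of the 10 the 2 genes of at least 5 CPM with the closest pattern. Of 201 list entries outside the 10, 198 matched by symbol, 2 by an older symbol and 1 did not match. Some genes stand in several lists. Coordinates are those of the table and equal GENCODE M21 for the 10. Labels do not say whether libraries of a cage were handled on 1 day. Alternatives were DESeq2 1.42.0 and limma-voom (limma 3.58.1) as the test, RLE or upper quartile scaling, a filter at 5 CPM or none, a fit without robust moderation, a covariate (early gene or acinar mean), a block by mouse number, another reference for ratios, and leaving out mice.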

Additional observations from a re-analysis of the deposited data

How the results depend on the processing

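Of 210 values for the 10 genes under 21 alternatives each, 199 kept their direction and their side of the threshold, and 11 changed sign. Ddit3 and Ppp1r15a were called in 20 of 21 alternatives. The exception was the immediate early and heat shock mean as a covariate. With it 0 genes were called of all tested, 0 of the 10, and 0 in each list. The log2 fold changes were then 0.85 for Ddit3, 0.20 for Ppp1r15a and 1.19 for Cebpb. That mean separates the diets completely, so this fit cannot tell diet from it, and no conclusion is drawn from its values. None of the other 8 came to pass the test in any of the 21. Over all genes the 1627 calls fell to 841 with mouse number as a replicate block and ran from 938 to 1813 when single mice were left out. The mouse numbers are numbers within cages and do not pair the mice: same-numbered mice correlated at -0.129 to 0.0483, and the block kept Ddit3 (-1.16, edgeR adjusted p = 0.00489) and Ppp1r15a (-0.45, 9.63e-04). With it the calls fell to 2 of the eIF2 list, 1 lower of the other targets, 1 of the paralogs, 0 higher of the mTORC1 brakes and 0 lower of the amino acid list, while the higher calls of the amino acid list went from 5 to 7. The eIF2 list genes that no longer passed with the block were Eif2ak3 (edgeR adjusted p = 0.0694) and Eif2s1 (0.0579). DESeq2 called 5 lower and 1 higher of the other targets. With the mean of the 9 other genes as reference, 4 ratios passed in place of 2.

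Beside the 3 turned signs under the early gene covariate, the sign turned for Ddit4, Trib3 and Atf5, which had not passed the test. The log2 fold change of Ddit4 was 0.0177 with the block and ran from -0.0767 to 0.0332 when single mice were left out, that of Trib3 from -0.047 to 0.316 and that of Atf5 from -0.000189 to 0.118. The log2 ratios to Atf4 ran from -0.0731 to 0.215 for Trib3, from -0.0571 to 0.0866 for Atf5 and from -0.102 to 0.014 for Ddit4, and that of Ddit4 to the 9 other genes was 0.123. The lowest Trib3 and Atf5 fold changes came without western diet mouse 1 of cage 4. The cause was not tested.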
